A study of Rattus norvegicus with 18 samples.

Results

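The genes described here encode subunits of phosphoinositide 3-kinase (PI3-kinase) in neonatal rat ventricular cardiomyocytes. The 9 listed genes are the catalytic subunits Pik3ca, Pik3cb, Pik3cd and Pik3cg and the regulatory subunits Pik3r1, Pik3r2, Pik3r3, Pik3r4 and Pik3r5. Each was read on its brightest transcript cluster, the probe group that stands for a gene on the array, among clusters to which the platform annotation gives a single gene symbol. In all, 7 of the 9 genes had such a cluster, out of 14557 genes with a cluster of this kind and 36685 clusters on the array. Pik3cg and Pik3r1 are not named in the annotation used here and have no value below. Pik3r3 was put on the list because it was higher in stretch and lower with the inhibitor under both triggers, so its values in those comparisons are given as a description with no test, and the other 6 measured genes were listed as its family.

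Expression was measured on 18 Rat Gene 2.0 ST arrays in 6 groups of 3 biological replicates, each array holding pooled RNA of 2 to 6 technical replicates of one cell isolation. In the stretch experiment, cells cultured for 3 days were stretched cyclically and biaxially by 20% for 24 h (ST) or left unstretched (static control). Others were stretched with 10 µM KB-R7943 (spelled KB-R7934 in the labels), which blocks the sodium-calcium exchanger preferentially in its calcium-entry mode (ST with NCXI). The tachycardia experiment lasted 3 h and paced the cells at 8 Hz, alone (TC) or with that inhibitor (TC with NCXI), and its 1 Hz control at the slower rate. The labels name no genotype and no further agent. No unstimulated cells were given the inhibitor, so its effect on resting cells was not measured. The experiments differed in duration, in the control and, by the paper's methods, in the culture surface, as well as in the trigger. These cannot be told apart.

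Class I PI3-kinases phosphorylate the membrane lipid PIP2 to PIP3, which recruits the kinases Pdpk1 and Akt to the membrane. Class IA enzymes pair a catalytic subunit (p110 alpha, beta or delta, from Pik3ca, Pik3cb and Pik3cd) with a regulatory subunit from Pik3r1, Pik3r2 or Pik3r3, which binds phosphotyrosine on receptors and adaptors, and class IB pairs p110 gamma (Pik3cg) with p101 (Pik3r5) or its relative Pik3r6 below G protein-coupled receptors. In the heart, p110 alpha is known for physiological growth downstream of insulin and IGF1 receptors, and p110 gamma for the control of contractility.

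Markers of myocytes and of other cells were both present in the cultures. The 10 measured myocyte markers of 14 listed had a mean log2 level of 11.21 to 12.03 in every array, and the 10 fibroblast markers one of 8.39 to 9.47. Of 20 leukocyte markers 18 were measured, and none of them was below the lower quartile of all clusters in every array. The leukocyte markers were lower with the inhibitor and are given beside the results they accompany.

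Among the regulatory subunits of class IA, Pik3r3 had the widest spread between groups, with group means from 7.43 to 8.35 on the log2 scale. Pik3r3 encodes p55 gamma, a short class IA regulatory subunit, which carries the phosphotyrosine-binding domains but lacks the amino-terminal part of p85. It was read on transcript cluster 17801228.

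In the static controls Pik3r3 had log2 levels of 7.86, 7.41 and 7.47. The ST arrays had 8.30, 8.49 and 8.27, and the ST with NCXI arrays 7.74, 7.76 and 7.67. All ST arrays thus lay above all arrays of both other groups of the stretch experiment, while the ST with NCXI arrays fell inside the range of the static controls. Only static control replicate 1, at 7.86, lay above the ST with NCXI arrays, and the controls at 7.41 and 7.47 lay below them. The ST mean was 8.35 ± 0.12 (SD, n = 3) against 7.58 ± 0.25 in the static controls, a difference of 0.77 (SE 0.14), or 1.71-fold. With NCXI the mean was 7.72 ± 0.05, which was 0.63 below ST (SE 0.14, 1.55-fold lower). Against the static control, ST with NCXI differed by 0.14 (SE 0.14, 95% confidence interval -0.16 to 0.45).

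In the tachycardia experiment the 1 Hz controls had Pik3r3 levels of 8.02, 7.89 and 7.93. The TC arrays had 8.12, 7.94 and 7.99, and the TC with NCXI arrays 7.32, 7.46 and 7.51. Here the TC and 1 Hz arrays overlapped and the TC with NCXI arrays lay below all of them. The comparison of TC with the 1 Hz control was not itself used to choose Pik3r3. It shares the TC arrays with TC with NCXI against TC, which was used, so it is not free of that choice. It did not pass the threshold, set at an unadjusted p under 0.05 with at least 1.2-fold in limma. The difference was 0.07 (SE 0.11, 95% confidence interval -0.17 to 0.31, unadjusted p = 0.532, adjusted p = 1.00). TC with NCXI had a mean of 7.43 ± 0.10, against 8.02 ± 0.09 in TC, a difference of -0.59 (SE 0.11, 1.5-fold lower). It was also 0.52 below the 1 Hz control (SE 0.11).

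Ordered by their means, the groups ran from TC with NCXI (7.43) through static control (7.58), ST with NCXI (7.72), 1 Hz control (7.95) and TC (8.02) to ST (8.35). The arrays of TC with NCXI overlapped those of the static control, these overlapped those of ST with NCXI, and the 1 Hz control overlapped TC. ST with NCXI lay wholly below the 1 Hz control, and TC wholly below ST, but these neighbours come from different experiments. The effect of the inhibitor on Pik3r3 was -0.63 in stretch and -0.59 in pacing. These effects differed by -0.04 (SE 0.16, 95% confidence interval -0.39 to 0.31), an interval that leaves room for unequal effects. The effect of stretch exceeded that of pacing by 0.70 (SE 0.16). Pik3r3 was chosen for being higher in stretch and lower with NCXI under both triggers. Its values here are therefore a description, and nothing is read from the likeness of the inhibitor effects.

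**Figure D1:**
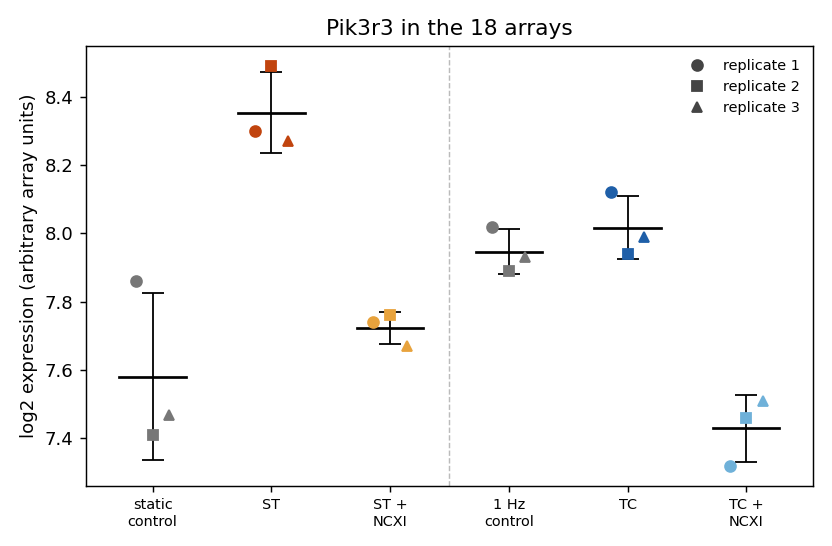
Log2 expression of Pik3r3 (vertical axis) in each of the 18 arrays, by group (horizontal axis); symbols are single arrays by replicate number, long bars are group means and whiskers are 1 SD. The ST arrays (8.27 to 8.49) lie above both other stretch groups, and the TC with NCXI arrays (7.32 to 7.51) lie below both other pacing groups.

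Pik3r2 encodes p85 beta, the full-length regulatory subunit that shares its catalytic partners with p55 gamma. On cluster 17707071 its log2 levels were 6.36, 6.37 and 6.77 in the static controls, 6.53, 6.45 and 6.89 in ST and 6.41, 6.67 and 6.82 in ST with NCXI. In the tachycardia experiment they were 6.32, 5.89 and 6.46 in the 1 Hz controls, 6.34, 6.11 and 6.01 in TC and 6.13, 6.05 and 6.17 in TC with NCXI. The groups overlapped throughout each experiment. No comparison of Pik3r2 was past the threshold, with differences within the experiments from -0.11 (TC with NCXI against the 1 Hz control) to 0.13 (ST with NCXI against the static control, 95% confidence interval -0.25 to 0.52). In the stretch experiment, replicate 3 was the highest array of each group for this gene.

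Of the catalytic subunits, Pik3cb was the one with the largest change: it fell with NCXI during stretch at the unadjusted threshold. Pik3cb encodes p110 beta, a catalytic subunit that can be activated through tyrosine kinase receptors and by G protein beta-gamma subunits. On cluster 17854874 the static controls had log2 levels of 7.31, 7.38 and 7.61. The ST arrays had 7.81, 7.81 and 7.45, and the ST with NCXI arrays 7.01, 7.15 and 7.32. All ST with NCXI arrays were below all ST arrays, while 1 of them, replicate 3, lay just above the lowest static control. The mean with NCXI was 7.16 ± 0.16 against 7.69 ± 0.21 in ST, a difference of -0.53 (SE 0.15, 1.45-fold lower, limma, unadjusted p = 0.00518, adjusted p = 0.294). Stretch alone gave 0.26 (SE 0.15, 95% confidence interval -0.07 to 0.58) with overlapping arrays, which did not pass the threshold; without ST replicate 3, the lowest ST array, it was 0.38 and did. ST with NCXI against the static control was -0.27 (SE 0.15), also short of the threshold.

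During pacing Pik3cb stayed within a narrower range. The 1 Hz controls had 7.88, 7.77 and 7.82, the TC arrays 7.82, 7.90 and 8.06 and the TC with NCXI arrays 7.68, 7.88 and 7.92. All 3 groups overlapped, and NCXI in pacing gave -0.10 (SE 0.11, 95% confidence interval -0.36 to 0.16, limma, unadjusted p = 0.409, adjusted p = 0.983). The effects of the inhibitor under stretch and under pacing differed by -0.43 (SE 0.18, limma over 18 arrays, unadjusted p = 0.0300, adjusted p = 0.797), which passed the unadjusted threshold and not the adjusted one. This difference in effects fell short of the threshold in 7 of the 18 fits that left out 1 array.

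Pik3cd encodes p110 delta, a catalytic subunit known mainly from leukocytes. On cluster 17812817 its log2 levels were 6.08, 5.89 and 5.80 in the static controls, 6.06, 5.99 and 5.87 in ST and 5.77, 5.56 and 5.77 in ST with NCXI. The ST with NCXI arrays lay below all arrays of both other stretch groups. The difference from ST was -0.27 (SE 0.12, 1.21-fold lower, limma, unadjusted p = 0.0458, adjusted p = 0.508), at the edge of the threshold, and it no longer passed in 6 of the 9 fits that left out 1 array and in 4 of the 11 other settings. In the tachycardia experiment the 1 Hz controls had 5.66, 5.86 and 6.16, the TC arrays 5.84, 6.05 and 5.89 and the TC with NCXI arrays 6.22, 6.02 and 6.12. There the mean with NCXI was higher than in TC, by 0.20 (SE 0.14, 95% confidence interval -0.13 to 0.52), with overlapping arrays and short of the threshold. The effects of the inhibitor under the 2 triggers differed by -0.47 (SE 0.18, limma, unadjusted p = 0.0197, adjusted p = 0.795), again past the unadjusted threshold only.

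Pik3ca encodes p110 alpha, the catalytic subunit tied to insulin and IGF1 signalling. On cluster 17876861 its log2 levels were 6.72, 7.02 and 7.14 in the static controls, 7.01, 6.98 and 6.79 in ST and 6.94, 6.38 and 7.33 in ST with NCXI. The 1 Hz controls had 6.43, 6.6 and 6.20, the TC arrays 6.95, 6.27 and 6.81 and the TC with NCXI arrays 6.80, 6.01 and 6.26. The replicates of this gene spread more than those of the other class IA subunits in the 3 groups TC, TC with NCXI and ST with NCXI, where the SD was 0.36, 0.40 and 0.48. None of its comparisons passed the threshold. Within the experiments, the largest differences were 0.26 for TC against the 1 Hz control (95% confidence interval -0.28 to 0.81) and -0.32 for TC with NCXI against TC (95% confidence interval -0.86 to 0.23), intervals that hold changes as large as those of Pik3r3 and Pik3cb.

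Class IB was represented by Pik3r5 alone, the p101 adaptor, since its catalytic partner Pik3cg had no named cluster. Pik3r5 was dim: on cluster 17647186 it was below the median of all clusters in 6 of 18 arrays, though in none below the lower quartile. Its log2 levels were 5.33, 5.15 and 5.81 in the static controls, 5.27, 4.89 and 5.69 in ST and 5.39, 5.17 and 5.24 in ST with NCXI. In the tachycardia experiment they were 5.61, 5.82 and 5.66 in the 1 Hz controls, 5.74, 6.09 and 5.57 in TC and 5.85, 5.95 and 5.23 in TC with NCXI. The groups overlapped within each experiment and no difference passed the threshold, the range being -0.17 to 0.11.

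Pik3r4 encodes VPS15, which by its known function belongs to another complex: it is the regulatory partner of the class III enzyme Vps34 (Pik3c3) in autophagy and endosomal traffic. On cluster 17847180 its log2 levels were 6.85, 6.84 and 6.90 in the static controls, 6.82, 6.85 and 7.07 in ST and 6.81, 6.73 and 6.90 in ST with NCXI. They were 6.55, 6.27 and 6.47 in the 1 Hz controls, 6.48, 5.91 and 6.57 in TC and 6.20, 6.19 and 6.22 in TC with NCXI. The TC with NCXI arrays lay below all 1 Hz arrays, with a difference of -0.23 (SE 0.17, 95% confidence interval -0.62 to 0.16) that did not pass the threshold. For TC with NCXI against TC the difference was -0.12 (SE 0.17); without TC replicate 2, the array at 5.91, it was -0.32 and passed the unadjusted threshold.

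**Figure D2:**
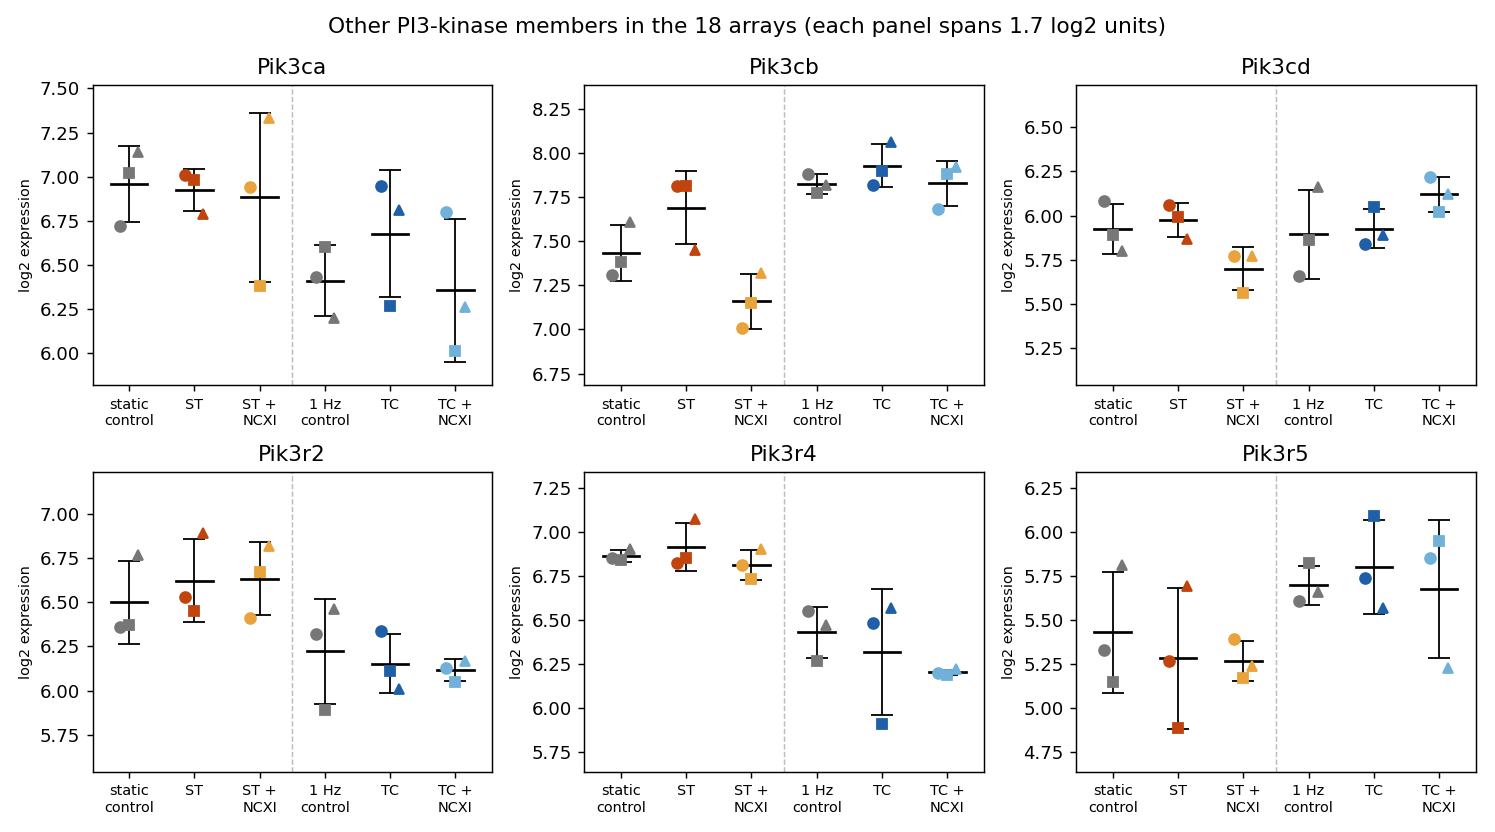
Log2 expression (vertical axis) of the other 6 measured genes in each array, by group (horizontal axis); symbols are single arrays by replicate number, long bars are group means, whiskers are 1 SD, and each panel spans the same 1.7 log2 units. Pik3cb and Pik3cd have their lowest group means in ST with NCXI, at 7.16 and 5.70, and the remaining panels show overlapping groups in each experiment apart from Pik3r4 in TC with NCXI against the 1 Hz control.

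Counted over the 7 measured genes at an unadjusted p under 0.05 and at least 1.2-fold in limma, ST against the static control had 1 gene past the threshold, Pik3r3, where 7.45% of all clusters passed. ST with NCXI against ST had 3, all lower (Pik3r3, Pik3cb and Pik3cd), where 9.13% of all clusters passed and 4.52% passed lower. TC against the 1 Hz control had 0 of 7, also at an unadjusted p under 0.05 alone and in the methods' t-test, where 3.91% of all clusters passed. TC with NCXI against TC had 1, Pik3r3, where 5.77% passed. Among clusters with 1 gene symbol, the kind on which the genes were read, 8.73%, 12.2%, 3.34% and 6.43% passed in these comparisons when fitted alone. Because Pik3r3 was chosen on 3 of these comparisons, nothing is read from its part in the counts. Without it, 2 of the other 6 genes passed in ST with NCXI against ST and 0 of 6 in the other 3 comparisons.

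After adjustment over all 36685 clusters 0 of 7 genes passed in any of these comparisons, where 0%, 0.00545%, 0% and 0% of all clusters did. The arrays of the 2 groups did not overlap for 1, 3, 0 and 1 of the 7 genes in these 4 comparisons, against 12.3%, 15.2%, 8.58% and 10.4% of all clusters. Against the controls, ST with NCXI had 0 of 7 genes past the threshold (10.2% of all clusters), and TC with NCXI had 1, Pik3r3 (8.65%). The arrays of those groups did not overlap for 1 of 7 genes (Pik3cd, 16.8% of all clusters) and 2 of 7 (Pik3r3 and Pik3r4, 15%). The effects of the triggers differed at the threshold for 1 of 7 genes, Pik3r3 (6.02%), and the effects of NCXI for 2, Pik3cb and Pik3cd (6.13%), both more negative under stretch (3.04%). Where Pik3r3 is counted here, the arrays are among those it was chosen on, and nothing is read from its part in these counts either. Of the other 6 genes, 0 passed against the controls and 0 in the difference between the effects of the triggers. The 2 comparisons of the inhibitor and of the trigger in each experiment share the arrays of the trigger alone, so opposite signs of their values are not independent.

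**Figure D3:**
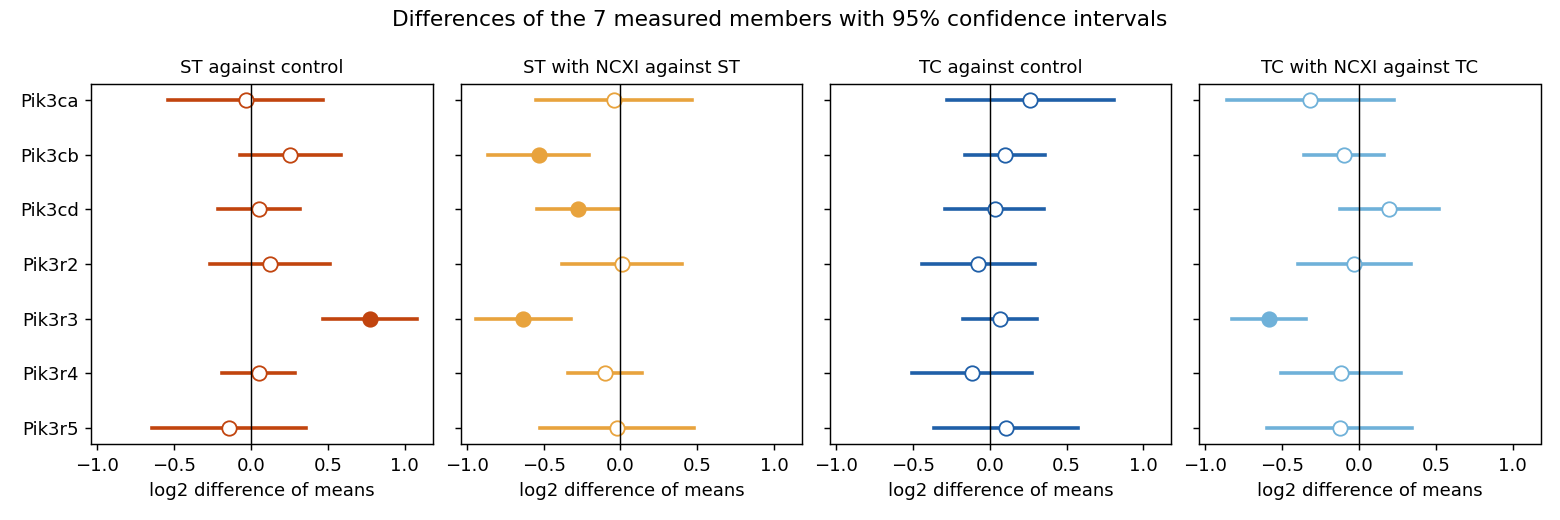
Log2 difference of group means (horizontal axis) with its 95% confidence interval for the 7 measured genes (vertical axis) in 4 comparisons; filled circles mark an unadjusted p under 0.05 with at least 1.2-fold. Pik3r3 is filled in 3 panels (0.77, -0.63 and -0.59), which its choice had used, and Pik3cb (-0.53) and Pik3cd (-0.27) are filled for ST with NCXI against ST.

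Leukocyte markers were lower in the same comparisons. In ST with NCXI against ST, 18 of 18 measured markers had a lower mean and 11 passed the threshold, with a median difference of -0.68 where the median of all genes was 0.00, and 4.52% of all clusters passed lower. In ST against the static control 0 of 18 passed in limma, also at an unadjusted p under 0.05 alone. Their summed level on the linear scale was 1939 to 4430 in the static controls, 1530 to 5573 in ST and 949 to 1746 in ST with NCXI. The ST and ST with NCXI arrays thus overlapped in the summed level, and ST replicate 3, the highest, was the ST array in which Pik3cb and Pik3cd were lowest. Without it 6 of the 18 markers passed, and without ST with NCXI replicate 1, 7 did.

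Markers of other cells were past the threshold in that comparison as well, where 9.13% of all clusters passed. Of 10 fibroblast markers 2 were lower (Col1a1 at -0.64 and Col1a2 at -0.62) and 1 higher (Dcn at 0.92), and the summed level was 6640 to 10214 in ST and 6549 to 7545 in ST with NCXI. Of 8 endothelial markers Tek was lower (-0.43), of 4 smooth muscle and pericyte markers Tagln was lower (-0.52), and of 10 myocyte markers Tnni3 was higher (0.29) and Actn2 lower (-0.36). In ST against the static control 9 of 10 fibroblast and 9 of 10 myocyte markers had a higher mean, with medians of 0.26 and 0.19. Of them 1 passed (Actn2, 0.49), where 7.45% of all clusters did. In pacing, 1 of these other markers passed, the endothelial Tie1, at 0.55 in TC and -0.59 with NCXI. There 3.91% and 5.77% of all clusters passed, and nothing is read from these single calls of Actn2 and Tie1.

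In TC with NCXI against TC, 17 of 18 leukocyte markers had a lower mean, 10 passed (2.5% of all clusters passed lower) and the median was -0.44. The summed level was 2899 to 4365 in the 1 Hz controls, 2889 to 4120 in TC and 1888 to 2959 in TC with NCXI. In these arrays Pik3cd, the subunit known from leukocytes, had its highest group mean, and Pik3r3 its lowest. The count of markers in pacing was 5 without TC replicate 2 or without TC replicate 3 and 3 without TC with NCXI replicate 3. In bulk RNA, fewer leukocytes and less RNA per leukocyte cannot be told apart, and the part of the markers of these cell types in the results for Pik3r3, Pik3cb and Pik3cd was not tested.

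After the mean of each experiment was subtracted, the correlation with the mean leukocyte level over 18 arrays was 0.27 for Pik3r3, 0.43 for Pik3cb, 0.17 for Pik3cd and 0.57 for Pik3r5. Over the 9 stretch and the 9 pacing arrays it was 0.12 and 0.68 for Pik3r3, 0.47 and 0.26 for Pik3cb, 0.41 and -0.24 for Pik3cd, and 0.67 and 0.41 for Pik3r5. Pik3r4 had the highest value in stretch, 0.79, with 0.17 in pacing. These are descriptions across arrays that share groups and normalisation.

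The measured subunits did not vary as a block. On the same centred values, the correlation with Pik3r3 over 18 arrays was 0.49 for Pik3cb (0.55 in stretch, 0.35 in pacing), 0.34 for Pik3r4, 0.12 for Pik3r2, 0.05 for Pik3ca and -0.16 for Pik3r5. For Pik3cd it was -0.04 over all arrays, made of 0.49 in stretch and -0.68 in pacing.

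The pattern of Pik3r3 was also set against all other named genes. Among 8727 genes at or above the median level, the correlation with Pik3r3 over 18 arrays had a median of 0.02, was above 0.8 for 16 genes and below -0.8 for 32. The highest were Grk5 (0.88), a G protein-coupled receptor kinase, the membrane proteins Tmem51 (0.87) and Ttyh3 (0.87), Cdc42ep3 (0.86), an effector of the GTPase Cdc42, and the tetraspanin Tspan12 (0.85). Each was higher in ST than in the static control, by 0.39 (Tspan12) to 0.90 (Tmem51), and lower with NCXI, by a difference of -0.22 (Tspan12) to -0.60 (Cdc42ep3) from ST and of -0.25 (Ttyh3) to -0.53 (Cdc42ep3) from TC. The lowest were Mt1f (-0.94) and Mt2A (-0.92), which encode metal-binding metallothioneins, and Optn (-0.93), which encodes the autophagy receptor optineurin. Mt1f had a difference of -1.46 in ST against the static control, and of 1.05 with NCXI against ST as well as against TC. These genes were picked for this likeness, and their values are given with no test.

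**Figure D4:**
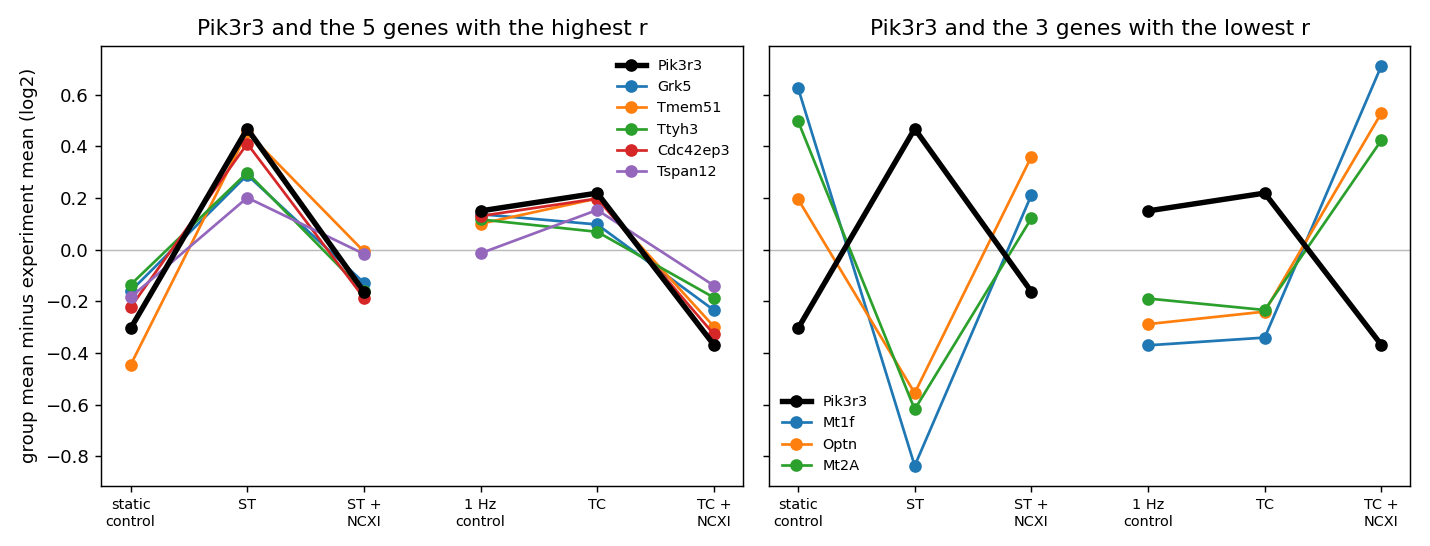
Group mean minus the mean of its experiment, in log2 units (vertical axis), by group (horizontal axis), for Pik3r3 (thick black line) and the 5 genes with the highest (left) and the 3 with the lowest (right) correlation with it over 18 arrays. The left lines peak in ST and dip in TC with NCXI like Pik3r3, and the right lines run opposite, Mt1f with the widest range.

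Around the subunits, 95 further genes of the pathway were listed and 68 were measured. In ST against the static control 4 of the 68 were higher and 6 lower at the threshold, in ST with NCXI against ST 3 were higher and 1 lower, in TC against the 1 Hz control 0 were higher and 1 lower, and in TC with NCXI against TC 2 were higher and 2 lower. Over all clusters 7.45%, 9.13%, 3.91% and 5.77% passed in these comparisons. None passed after adjustment in limma. The median difference of the 68 genes was -0.03, 0.00, -0.02 and 0.02 in these comparisons, where the median of all genes was 0.00, 0.00, -0.01 and 0.00. The lists had been drawn up with earlier results of these arrays known.

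Among the other PI3-kinase genes (6 of 10 measured), Pik3c2b, a class II enzyme, was higher in ST. Its log2 levels were 7.12, 6.70 and 6.80 in the static controls and 7.33, 7.42 and 7.20 in ST, with no overlap, a difference of 0.44 (SE 0.15, limma, unadjusted p = 0.0145, adjusted p = 0.508). The call was lost without static control replicate 2 or without ST replicate 2.

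Pik3c3, which encodes Vps34, the catalytic partner of Pik3r4, was lower in TC. It had 7.61, 7.42 and 7.64 in the 1 Hz controls, 7.21, 7.0 and 7.14 in TC and 6.91, 6.83 and 7.28 in TC with NCXI. The TC arrays lay below all 1 Hz arrays, by a difference of -0.44 (SE 0.14, limma, unadjusted p = 0.0127, adjusted p = 1.00), and TC with NCXI differed from the 1 Hz control by -0.55 (SE 0.14, adjusted p = 0.361). It was the only one of the 68 pathway genes past the threshold in TC against the 1 Hz control.

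Of the receptors and adaptors that feed class IA enzymes (20 of 25 measured), Grb14, an adaptor that binds and inhibits the insulin receptor, had 8.52, 8.32 and 8.05 in the static controls and 8.80, 8.89 and 8.90 in ST. The groups did not overlap, and the difference was 0.56 (SE 0.15, limma, unadjusted p = 0.00522, adjusted p = 0.421). Grb14 was not lower with NCXI, where it had 8.86, 9.31 and 9.04. That was 0.77 above the static control (SE 0.15, limma, adjusted p = 0.114). Irs2, the insulin receptor substrate that docks p85, was lower in ST and higher with NCXI in pacing. It had 9.06, 9.53 and 9.27 in the static controls and 8.84, 8.91 and 8.65 in ST, a difference of -0.49 (SE 0.15, adjusted p = 0.459). In TC it had 9.67, 9.38 and 9.69 and with NCXI 9.93, 9.91 and 10.15, a difference of 0.42 (SE 0.14, adjusted p = 0.749). The effect of ST on Irs2 differed from that of TC by -0.73 (SE 0.20, adjusted p = 0.564).

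Kit, a receptor tyrosine kinase, was higher in ST with NCXI than in ST, by 0.44 (SE 0.16, limma, adjusted p = 0.438), a call that was lost in 3 of the fits that left out 1 array. Kit in ST with NCXI was also 0.63 above the static control (SE 0.16, limma, adjusted p = 0.206). Irs4, a dim gene with group means of 4.28 in TC and 4.66 in TC with NCXI, was past the threshold there by 0.37 (SE 0.16), which most other settings did not keep, among them the replicate block (unadjusted p = 0.0668 in limma).

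Of the kinases and regulators below PI3-kinase 21 of 32 were measured. In ST against the static control 1 was higher (Foxo6, 0.37) and 1 lower (Eif4ebp1, a translation repressor that mTOR inactivates, -0.39), where 7.45% of all clusters passed. In the 3 other comparisons of trigger and inhibitor 0 passed, where 3.91% to 9.13% of all clusters did. Akt1, the main kinase recruited by PIP3, gave 0.12, -0.14, -0.18 and 0.16 in ST, NCXI during stretch, TC and NCXI during pacing, none past the threshold. Of the lipid phosphatases, which remove the phosphates that PI3-kinase adds or act beside it, 6 of 10 were measured and 0 passed in any of the 4 comparisons in limma, also at an unadjusted p under 0.05 alone, where 3.91% to 9.13% of all clusters passed.

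FOXO target genes are transcribed by FOXO factors, which Akt phosphorylates and keeps out of the nucleus; the arrays measured RNA only and held no phosphorylation. In ST against the static control 14 of the 17 measured genes had a lower mean, 5 were lower at the threshold (4.33% of all clusters) and 0 higher, and the median was -0.17 where that of all genes was 0.00. The 5 were Pdk4, Gabarapl1, Gadd45a, Cat and Irs2. Pdk4, a kinase that restrains pyruvate oxidation, had 10.12, 10.87 and 11.05 in the static controls and 8.44, 9.29 and 10.20 in ST, a difference of -1.37 (SE 0.42, limma, adjusted p = 0.470). One ST array of Pdk4, replicate 3, reached into the range of the controls.

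Gadd45a, a growth arrest gene, had 9.41, 10.20 and 9.67 in the static controls and 8.93, 9.08 and 8.78 in ST, with no overlap and a difference of -0.83 (SE 0.21, adjusted p = 0.394). Gabarapl1, an autophagy gene, gave -0.86 (SE 0.27, adjusted p = 0.499). The count of 5 was 2 in the methods' t-test and 3 at 1.5-fold. In TC against the 1 Hz control 9 of the 17 had a lower mean and 0 passed, also at an unadjusted p under 0.05 alone, with a median of -0.02. The effect of ST was below that of TC for 14 of the 17, 5 of them past the threshold (Irs2, Gadd45a, Pdk4, Bcl6 and Gabarapl1), where 3.41% of all clusters passed lower. Gabarapl1 lost that call in 5 of the 18 fits that left out 1 array, and Bcl6 lost it at 1.5-fold.

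With NCXI during stretch 12 of the 17 FOXO targets had a higher mean than in ST and 5 a lower one. At the threshold 2 were higher and 1 lower, where 4.6% and 4.52% of all clusters were, and the median was 0.11. Fbxo32, the muscle ubiquitin ligase atrogin-1, had 8.60, 9.24 and 9.10 in ST and 9.93, 10.23 and 10.07 with NCXI, with 9.0, 9.29 and 9.0 in the static controls. The arrays with NCXI lay above all others, by 1.10 over ST (SE 0.18, 2.14-fold, limma, adjusted p = 0.109) and by 0.98 over the static control. Bcl6, a transcriptional repressor, was higher by 0.72 (SE 0.14, adjusted p = 0.158) and Sesn3, a sestrin, lower by a difference of -0.57 (SE 0.13, adjusted p = 0.231), each with no overlap. None of these 3 had passed in ST against the static control. Of the 5 genes that had, ST with NCXI differed from the static control at the threshold for Pdk4 (-1.71) and Gadd45a (-0.88). It did not for Gabarapl1 (-0.61), Cat (-0.22) and Irs2 (-0.18), and none of the 5 passed in ST with NCXI against ST. Irs2 was 0.30 above ST there with no overlap of the arrays, and Cat 0.34 above ST with overlap.

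With NCXI during pacing 9 of the 17 FOXO targets had a higher mean than in TC and 8 a lower one. At the threshold 1 was higher (Irs2) and 2 lower, where 3.27% and 2.5% of all clusters were. Txnip, the thioredoxin-binding protein, had 9.72, 8.48 and 8.43 against 10.51, 10.29 and 9.96 in TC, with no overlap and a difference of -1.38 (SE 0.32, limma, adjusted p = 0.583). Catalase (Cat) was lower by a difference of -0.27 (SE 0.11, adjusted p = 0.823), which no longer passed in 6 of the 9 fits that left out 1 array. Against the 1 Hz control, TC with NCXI had 4 of the 17 higher and 3 lower at the threshold, where 4.7% and 3.95% of all clusters were. Among them Irs2 was higher by 0.66 (limma, adjusted p = 0.315), Bcl6 by 0.33 and Trim63, the ubiquitin ligase MuRF1, by 0.37. Txnip was at -1.40 and Cat at -0.34. The effects of NCXI under the 2 triggers differed for 4 of the 17 FOXO targets at the threshold, all higher under stretch: Txnip by 1.13, Fbxo32 by 0.72, Cat by 0.61 and Bcl6 by 0.56, with adjusted p from 0.682 to 0.797. Over all clusters 3.09% passed in that direction. Of the 18 fits that left out 1 array, Txnip lost this call in 6, Fbxo32 in 5 and Cat in 3. Bcl6 kept it in all of them and lost it at 1.5-fold.

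**Figure D5:**
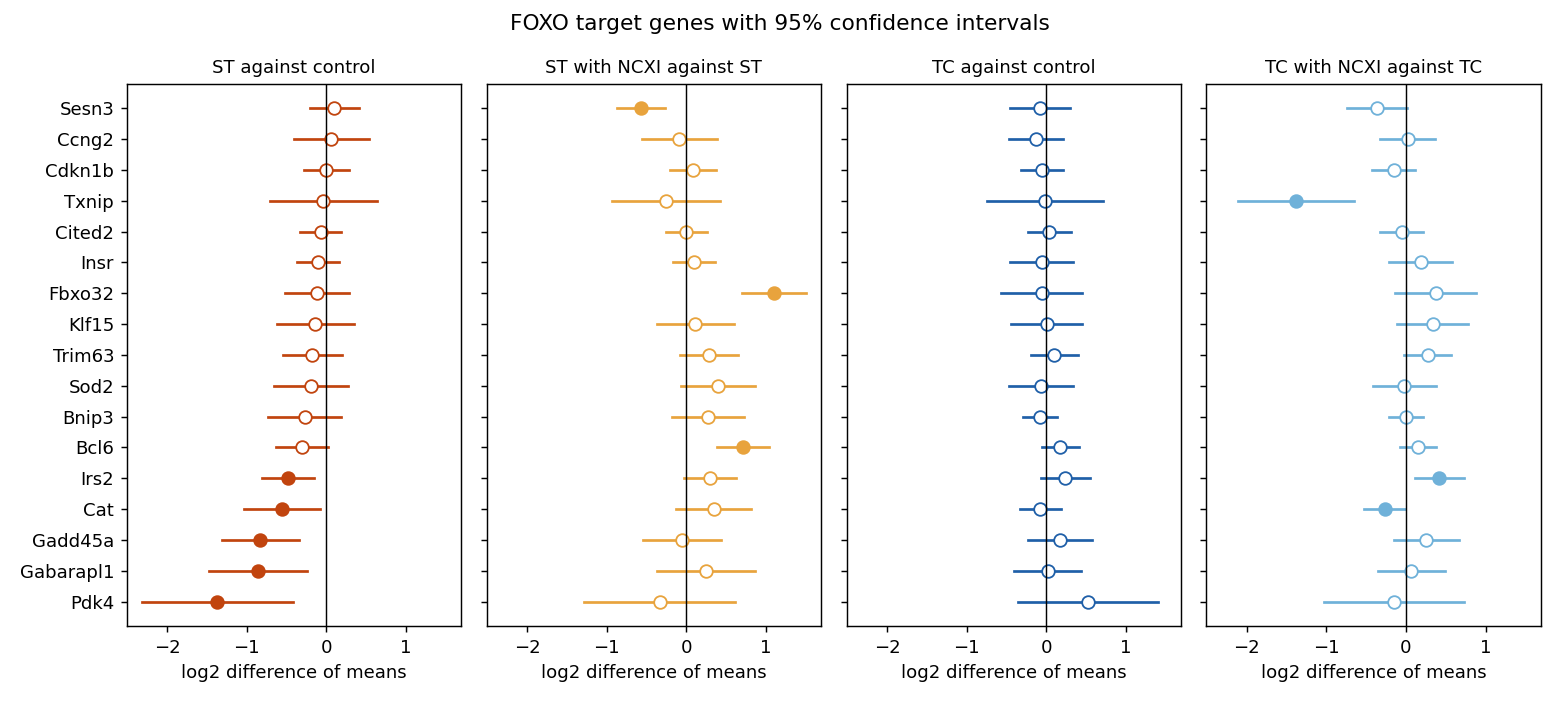
Log2 difference of group means (horizontal axis) with its 95% confidence interval for the 17 measured FOXO target genes (vertical axis, ordered by the first panel) in 4 comparisons; filled circles mark an unadjusted p under 0.05 with at least 1.2-fold. In ST against the static control 14 of 17 circles lie left of 0, with Pdk4 lowest at -1.37, and with NCXI Fbxo32 (1.10, stretch) and Txnip (-1.38, pacing) lie farthest out.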

How the data were processed

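Myocyte RNA was hybridised to Rat Gene 2.0 ST arrays after amplification. The authors pre-processed and filtered the arrays in Partek Genomics Suite 6.6, and the deposited values are log2 expression levels per transcript cluster; the normalisation method is not given in the sources used here, and no scanner files were used. The values were used as deposited. Cultures were enriched for myocytes, not pure. Array number limits the precision.

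Genes were named from the platform annotation (15653 entries; 40.4% of clusters had exactly 1 symbol). The study's legends give a p under 0.05 and 1.2-fold without saying whether the p was adjusted, and its methods name a two-way ANOVA with Benjamini-Hochberg correction for the arrays. The threshold here is an unadjusted p under 0.05 with at least 1.2-fold, with adjusted p beside it. The methods' t-test is the one they name for 2 groups in general, not for the arrays. Comparisons were fitted with limma 3.58.1 in R 4.3.3 over the 9 arrays of an experiment, and differences between experiments over all 18, with Benjamini-Hochberg adjustment over all clusters. The fit was tested on simulated arrays with independent noise, for ST against the static control and TC with NCXI against TC only. That simulation held no link between arrays of the same replicate number, so it does not bear on pairing. The labels call the 3 arrays of a group biological replicates.

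The members and gene lists were chosen with earlier results of these data known. Named pathway genes were, per comparison, the 6 with the smallest p among those at the threshold; Foxo6, Cat, Akt1 and Eif4ebp1 in ST were named after their values were seen. Likeness to Pik3r3 was Pearson r after the mean of each experiment was subtracted. Alternatives covered the arrays in the fit, the test, normalisation, filters, fold, replicate block and leaving out each array. Same-numbered arrays deviated together at r = 0.12 to 0.29 for ST against the static control. For TC with NCXI against TC it was 0.13 to 0.25, and every pair in these comparisons was above 0.1. The limit of 0.1 was a choice, and ST with NCXI against ST fell just short of it, with r from 0.09 to 0.16. The numbers were taken as pairs for ST against the static control and for TC with NCXI against TC. This was read from these values and not from the labels. The main fits used no pairing, so their SE and p are unpaired there too, and the replicate block was run as an alternative only.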

Additional observations from a re-analysis of the deposited data

Results flagged for a closer look

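Results were picked out here where the effect of the inhibitor differed between the triggers by a test of the difference itself. For Pik3cb the effect of NCXI was -0.53 in stretch and -0.10 in pacing, and the effects differed by -0.43 (limma over 18 arrays, unadjusted p = 0.0300, adjusted p = 0.797). For Pik3cd the effect was -0.27 in stretch and 0.20 in pacing, and the effects differed by -0.47 (unadjusted p = 0.0197, adjusted p = 0.795). For both genes the 3 ST with NCXI arrays lay below the 3 ST arrays, and the pacing groups overlapped. At the same threshold 6.13% of all clusters passed. With 3 arrays per group, single arrays were not examined as outliers.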

How the results depend on the processing

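Pik3r3 kept its direction in all settings for ST against the static control (0.69 to 0.91 with 1 array left out). So it did for ST with NCXI against ST (-0.67 to -0.56), TC with NCXI against TC (-0.63 to -0.53) and TC with NCXI against the 1 Hz control (-0.56 to -0.46). Pik3r3 was chosen for being higher in ST and lower with NCXI under both triggers, so this stability is a description and no support. Its near-zero difference between the effects of NCXI ran from -0.10 to 0.02. The number of the 7 genes at the threshold changed at 1.5-fold, from 3 to 1 for ST with NCXI against ST, from 1 to 0 for TC with NCXI against the 1 Hz control (Pik3r3) and from 2 to 0 for the difference between the effects of NCXI. Pik3cd also lost its call in ST with NCXI against ST, leaving 2 genes, when the fit held the 2 groups only, with trend and robust options and after quantile normalisation. In 1 fit of all 18 arrays, ST with NCXI against the static control went from 0 to 1 (Pik3cb). With 1 array left out the counts ran from 1 to 2 for ST against the static control, from 2 to 3 for ST with NCXI against ST, from 1 to 2 for TC with NCXI against TC, from 0 to 1 for ST with NCXI against the static control, from 1 to 2 for TC with NCXI against the 1 Hz control and from 1 to 2 for the difference between the effects of NCXI, while the shares of all clusters ran from 5.67% to 10.1%, 7.61% to 10.1%, 4.83% to 6.93%, 7.9% to 11.2%, 6.47% to 10.1% and 5.03% to 7.28%. The second gene was Pik3cb without ST replicate 3, Pik3r4 without TC replicate 2, Pik3ca without TC with NCXI replicate 1 and Pik3cd without 1 Hz control replicate 3 (0.36 against that control), and the 1 gene in ST with NCXI was Pik3r3 without static control replicate 1. Pik3cb in ST with NCXI against ST lost its call at 1.5-fold only (-0.65 to -0.46 with 1 array left out). Near-zero differences changed sign with 1 array left out: Pik3cd in ST (-0.0079 to 0.13), in TC (-0.083 to 0.16) and between those effects (-0.11 to 0.14), and Pik3cb in TC with NCXI against the 1 Hz control (-0.044 to 0.077), which was also -0.021 after median centring. For Pik3ca, Pik3r2, Pik3r4 and Pik3r5, 43 of 680 values changed sign, all with 1 array left out. The causes were not tested. At 1.5-fold 2.39%, 2.94%, 1.36% and 1.94% of all clusters passed in ST, ST with NCXI, TC and TC with NCXI, and in the methods' t-test 4.48%, 6.03%, 2.43% and 3.7%. No member has a second named cluster, so that alternative gave no value.

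Under a replicate block the counts were 1, 3, 0 and 1 of 7 in ST, ST with NCXI, TC and TC with NCXI, 0 and 1 against the controls and 1 and 2 for the differences between experiments, the same as without it, while the shares of all clusters rose to 9.49%, 11.7%, 5.18%, 7.86%, 12.6%, 11.3%, 9.06% and 9.18%. Pik3r3 is among the genes counted here, and nothing is read from its part. Of the named genes, only Irs4 in TC with NCXI against TC lost its call, and the block changed no other call. In the 4 comparisons whose numbers were not taken as pairs, the lowest same-numbered r was -0.01 to 0.09.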
